A study of Mus musculus with 12 samples.

Results

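Type I hair cells are the flask-shaped receptor cells of the vestibular organs, each enclosed by the calyx-shaped ending of an afferent neuron. Their hair bundle opens mechanotransduction channels when it is deflected, large low-voltage potassium conductances shape the response, and ribbon synapses pass the signal on. Type II hair cells carry the same bundle and synapse machinery but meet bouton endings, and in the neonatal utricle of the mouse some of them are still immature. Single cells of the utricle, the organ that senses linear acceleration, were profiled at postnatal day 4 (P4) and postnatal day 6 (P6) by full-length Smart-seq2. Of the 1155 cells deposited, 684 came from the sensory epithelium and 471 from the tissue beneath it. Utricles of several FVB and *Pou4f3* DTR/+ pups were pooled before thermolysin digestion and mechanical peeling of the epithelium. The *Pou4f3* DTR/+ mice carry a diphtheria toxin receptor allele at a hair cell transcription factor gene, no toxin was given, and the genotype, sex and animal of a cell are not given.

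Type I hair cells were chosen on their own counts. After removal of cells with under 120000 reads, under 950 genes or over 10% mitochondrial reads, 1007 cells remained, of which 632 were epithelial. A type I hair cell held at least 2 of *Xirp2* (an actin-binding protein of the hair bundle and cytoskeleton), *Kcna10* (a voltage-gated potassium channel) and *Atp2b2* (the calcium pump of the bundle) at 50 CPM (reads scaled to the same library total in every cell) or more. It held fewer than 2 of the type II markers *Slc52a3*, *Atoh1* and *Rasd2* at that level. The rule found 191 cells, 30.2% of the kept epithelial cells (exact 95% Clopper-Pearson interval 26.7% to 34.0%, counting error only). Because these 6 genes and all other counts of the cells define the group, every difference from other cells below is a description, and no p-value is given.

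The 191 type I hair cells fell on 6 sequencing batches, with 61, 14, 30, 27 and 21 cells in batches 1 to 5, all P6, and 38 cells in batch 6, the only P4 batch. Age and batch therefore cannot be told apart. Batches are what the cell table names, and nothing says that they hold different animals, so the spread between them may be technical. The 12 deposited samples are blocks of cells in file order with no condition of their own and were not used as replicates. Type I hair cells held 154576 to 1110420 reads, with a median of 560152, and no cell had counts identical to those of another. Reads of Smart-seq2 carry no molecular identifiers and no strand, and rare transcripts go unseen in many of the cells that make them.

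All 3 markers were present at 50 CPM in 159 of the 191 cells, and 32 cells held 2 of them. No type II marker was present in 151 cells, and 40 held 1. The mean levels over type I hair cells were 813 CPM for *Xirp2*, 1503 CPM for *Kcna10* and 931 CPM for *Atp2b2*, and those of *Slc52a3*, *Atoh1* and *Rasd2* were 6.68, 9.94 and 40.4 CPM. Few cells lay near the threshold. The second strongest type I marker stood at 59.4, 86.8 and 92.5 CPM in the 3 members just inside, and at 47.4, 35.8 and 12.4 CPM in the 3 cells just outside. On the type II side, the second strongest marker reached at most 11.8 CPM in a member and started from 70.0 CPM in cells kept out by it.

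The mirror rule gave 35 type II hair cells for comparison, and 54 epithelial cells held both marker sets and belong to neither group. A further 202 epithelial cells carried at least 2 of the supporting cell markers *Ush1c*, *Dkk3*, *Nptx1* and *Agr3* and neither hair cell marker set. These last cells also hold *Cldn4*, a marker of transitional epithelial cells, at 862 CPM. Among type I hair cells, 24 (12.6%) held 2 or more of the 4 supporting cell markers, of which *Ush1c*, a bundle scaffold protein of hair cells too, was detected in 86.9% of type I hair cells. The summed level of the 4 markers was 307 CPM in type I hair cells (225 to 448 CPM over batches), 155 CPM in type II and 2936 CPM in the supporting cells. The part of supporting cell RNA in the results was not tested. The hair cell identity of the members is borne by genes outside the rule, with *Myo7a* at 350 CPM, *Pou4f3* at 709 CPM and *Otof* at 1840 CPM against 0.950, 9.71 and 8.59 CPM in the supporting cells. Markers of macrophages and Schwann cells were listed at 0 in all 191 cells (3 of 3 genes each), and the summed levels of the roof, pericyte, glia, endothelial, melanocyte and mesenchymal cell markers were 0.00738, 0.696, 1.24, 0.0357, 0.0109 and 1.98 CPM.

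*Spp1*, which encodes osteopontin, a secreted phosphoprotein that binds integrins, had the largest difference towards type I hair cells on the scale of log2(CPM + 1). Its level per batch was 28083, 26730, 36041, 34233 and 18945 CPM in batches 1 to 5 and 23809 CPM in batch 6. In type II hair cells it was listed at 0 in 4 of the 5 batches compared and stood at 9.95 CPM in batch 6, so the batch means did not overlap. Single cells did, with 16 type I hair cells listed at 0 and the highest type II hair cell at 115 CPM. The log2 difference of the means (after adding 1 CPM, taken within each batch with at least 3 cells of each type, and averaged over 5 batches) was 14.05 with an SD over batches of 1.70. *Spp1* took 2.82% of all reads of an average type I hair cell and 14.4% in the highest cell.

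**Figure D1:**
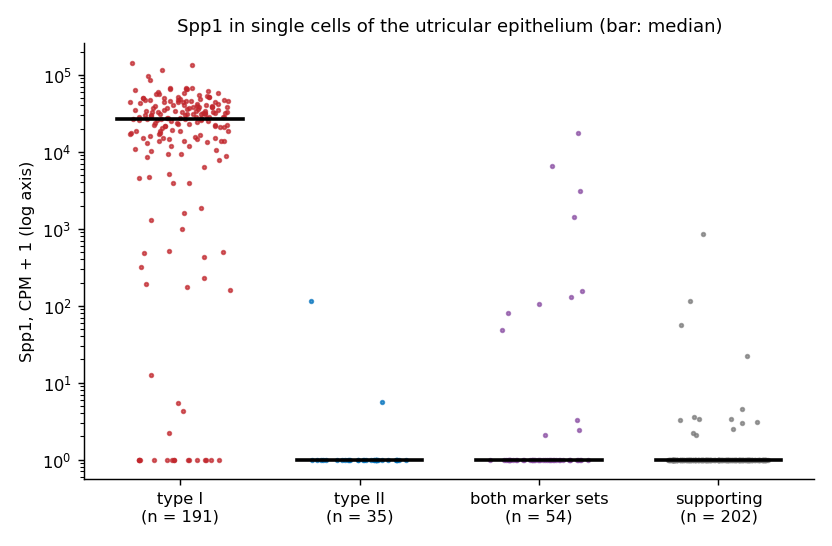
*Spp1* in each single cell (CPM + 1, log axis) of 4 groups of utricular epithelial cells, with the median as a bar. Type I hair cells have a median of 26860 CPM with a tail of cells at or near 0, while the medians of type II hair cells, cells with both marker sets and supporting cells are 0.

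Within type I hair cells *Spp1* was not uniform. The quartiles were 11812, 26860 and 39558 CPM, 147 cells held 10000 CPM or more, 30 held under 1000 CPM and 16 were listed at 0. Such low cells occurred in every batch, from 6.67% of the type I hair cells of batch 3 to 28.6% of those of batch 2. Among cells with both marker sets the mean was 540 CPM and the median 0, and 4 of 54 reached 1000 CPM.

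The 30 type I hair cells with little *Spp1* also held less of the 3 type I genes of the rule, so the split follows the rule in part. *Kcna10* averaged 568 CPM in them against 1677 CPM in the other 161, *Atp2b2* 277 against 1053 CPM, and *Xirp2* 605 against 852 CPM. *Dhrs3*, a retinal reductase, was at 375 against 1253 CPM, and the hair cell gene *Pou4f3* at 692 against 713 CPM. The means of the calcium buffers *Ocm* and *Calb1* went the other way, at 519 and 283 CPM in the low cells against 285 and 141 CPM. They came from part of the cells, as the median of *Ocm* was 0 in both groups. That of *Calb1* was 1.75 CPM in the low cells and 0 in the others. All these means pool cells over batches. A single type II marker was present in 13 of the 30 cells and in 27 of the 161. All 3 type I markers were present in 19 of the 30 and in 140 of the 161. Median depth was 491886 reads in the low cells and 568242 in the rest, and *Dkk3*, a supporting cell marker, averaged 119 CPM against 12.6 CPM. This split was made after the values were seen. The part of depth, of supporting cell RNA and of cells with *Ocm* in it was not tested.

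Across all genes, a gene was counted as higher in a type when the average log2 difference reached 1 and had the same sign in all 5 batches. Of 11033 genes seen in 10% or more of either type's cells, 1117 (10.1%) were higher in type I and 745 (6.75%) in type II hair cells. With detection in 50% of cells of either type required, 3910 genes remained, of which 367 (9.39%) were higher in type I and detected in that share of it, and 539 (13.8%) were higher in type II. The median over the 11033 genes was 0.22 towards type I, and centring the differences on it turned the split over, to 868 and 1209 genes. On simulated cells with no difference between the types the rule also marked genes, mostly rarely detected genes on the type I side. Counts over all genes are therefore not read further. The calls in each list below stand against these shares over all genes, and single genes are described by their values. Where 9.39% and 13.8% stand beside a list, they are shares of the 3910 genes with detection in 50%. How many genes of a list passed that filter was not counted, so the list counts beside them have another base.

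After *Spp1*, the largest differences towards type I, with detection in 50% of its cells required and predicted genes left out, were those of *AI593442*, *Dhrs3*, *Car7*, *Ighm*, *Sema6d*, *Car12* and *Vwa3a*. *AI593442* was at 4797, 4117, 6029, 1921 and 1948 CPM in batches 1 to 5 and at 962 CPM in batch 6. In type II hair cells it did not exceed 3.33 CPM in any batch, a log2 difference of 10.66 (SD 1.94). *Car7* and *Car12*, carbonic anhydrases that interconvert carbon dioxide and bicarbonate, averaged 520 and 285 CPM in type I hair cells. Both were listed at 0 in all 35 type II hair cells. Against the level that 3 reads over all type II hair cells would give (0.127 CPM), *Car7* was at least 4091-fold and *Car12* at least 2242-fold higher in type I. Such a limit counts reads pooled over the cells sequenced. It leaves out the spread between cells and is no bound for unsampled cells. *Ighm*, the constant region of the immunoglobulin mu heavy chain, was at 365 CPM, and *Vwa3a* at 179 CPM, again with all type II hair cells listed at 0. *Sema6d*, a transmembrane semaphorin, was at 515 against 2.34 CPM with a log2 difference of 8.27 (SD 1.41). Exons of *Spp1* overlap those of *Gm42793* on the same strand, and exons of *Vwa3a* overlap *Gm44661* on the other, so reads of these pairs may be shared.

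In the other direction the genes with large differences included *Gal*, *P2rx3*, *Lct*, *Ly6e*, *Cryab*, *Slc16a5* and *Dll3*. *P2rx3*, an ATP-gated cation channel, was at 0.304 CPM in type I and 352 CPM in type II hair cells, where the 5 batches ran from 251 to 417 CPM. *Gal*, the neuropeptide galanin, was at or under 0.242 CPM in type I hair cells of the 5 P6 batches and at 44.1 CPM in the P4 batch, against 572 to 2015 CPM in type II. The 161 type I hair cells with 1000 CPM or more of *Spp1* averaged 0 CPM of *Gal*. The P4 mean thus came from at most 5 of the 38 cells of batch 6, those with less *Spp1*. *Lct* and *Slc16a5* were listed at 0 in all 191 type I hair cells, at least 5168-fold and 2921-fold lower than in type II by the limit of 3 reads (0.028 CPM). *Dll3*, a Notch ligand, was at 1.05 against 182 CPM. The named type II genes *P2rx3*, *Cryab* and *Slc16a5* overlap exons of other genes on the other strand.

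**Figure D2:**
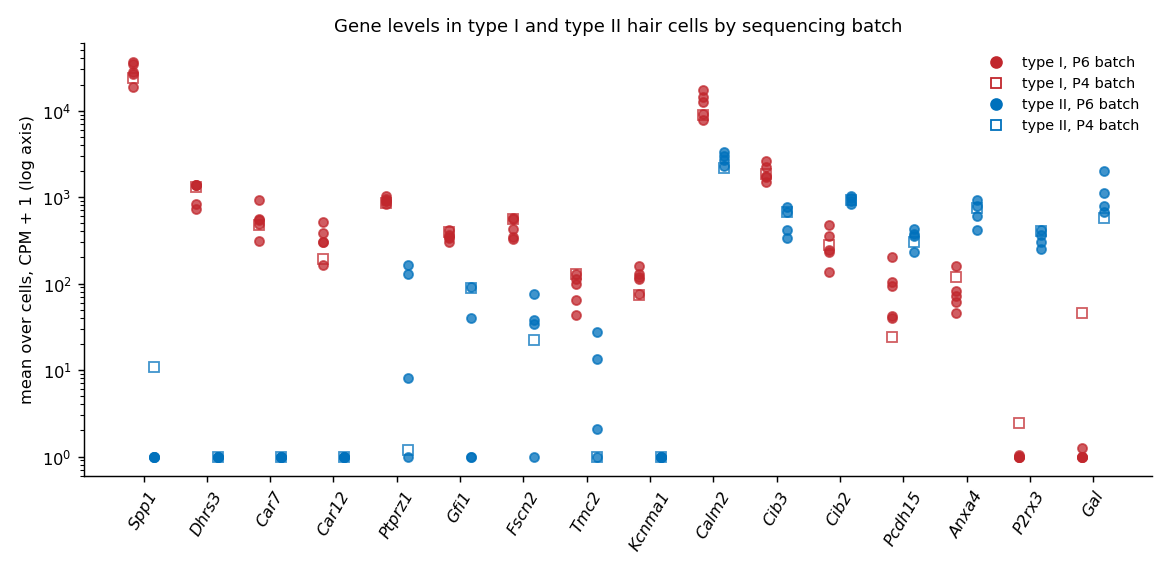
Mean level over cells (CPM + 1, log axis) of 16 genes in type I (red) and type II (blue) hair cells, with filled circles for P6 batches and open squares for the P4 batch. From *Spp1* to *Cib3* the type I points lie above the type II points, and from *Cib2* to *Gal* they lie below.

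When cells with both marker sets were counted as type II, the differences became smaller for several of these genes. That of *Spp1* became 10.11, that of *Dhrs3* 5.13 instead of 10.23 and that of *Sema6d* 2.91. *AI593442* (10.08), *Ighm* (8.49) and *Gal* (-8.15) stayed within the SD over batches of the main values.

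*Dhrs3* belongs to the retinoid pathway, in which retinaldehyde is made from retinol, oxidised by aldehyde dehydrogenases to retinoic acid and sensed by nuclear receptors. It averaged 1115 CPM and was detected in 78.0% of type I hair cells, at 718, 820, 1381, 1388, 1382 and 1310 CPM in batches 1 to 6. All 35 type II hair cells were listed at 0, so by the limit of 3 reads (0.127 CPM) it was at least 8769-fold higher in the cells sequenced. Other genes of the pathway were looked up after this was seen. Of 9 tested, 4 were higher in type I and 1 in type II (10.1% and 6.75% of all genes, median 3.73). With detection in 50% of the higher type, 3 and 1 were (9.39% and 13.8% of all genes). The gene higher in type II is not among those named below.

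*Rarb*, a retinoic acid receptor and textbook target of retinoic acid, was at 184, 98.2, 153, 144 and 222 CPM in batches 1 to 5 and 159 CPM in batch 6. In type II hair cells it was listed at 0 in 4 batches and stood at 94.0 CPM in batch 6. *Stra6*, a receptor that imports retinol, was at 130 against 9.49 CPM with a log2 difference of 5.02 (SD 2.04). *Aldh1a3*, which makes retinoic acid, was at 348 against 80.6 CPM (3.89, SD 2.90), and was at 430 CPM in supporting cells. *Cyp26a1*, an enzyme that breaks down retinoic acid, was listed at 0 in both. Exons of *Rarb* overlap *Gm48162* and *Top2b* on the other strand.

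The promoters of *Rarb* and *Spp1* are shown because the first carries the letters of a retinoic acid response element and the second drives the most abundant of these transcripts. Both are RefSeq windows of 250 bases before to 50 after the start (GRCm38.p6), written 5′ to 3′ on the strand of the gene, *Rarb* at chr14:16575427-16575726 (minus strand) and *Spp1* at chr5:104434861-104435160 (plus strand). Capitals mark the searched motif on either strand, for *Rarb* the DR5 form of the element (GGTTCA and AGTTCA with any 5 bases between them) and for *Spp1* the letters TATAAA.
Rarb: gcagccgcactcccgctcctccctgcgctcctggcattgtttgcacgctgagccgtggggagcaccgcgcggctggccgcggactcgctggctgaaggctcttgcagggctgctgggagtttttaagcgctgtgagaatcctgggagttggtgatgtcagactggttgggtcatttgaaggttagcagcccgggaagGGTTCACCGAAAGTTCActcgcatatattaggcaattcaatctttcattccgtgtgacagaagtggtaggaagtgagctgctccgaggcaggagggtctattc
Spp1: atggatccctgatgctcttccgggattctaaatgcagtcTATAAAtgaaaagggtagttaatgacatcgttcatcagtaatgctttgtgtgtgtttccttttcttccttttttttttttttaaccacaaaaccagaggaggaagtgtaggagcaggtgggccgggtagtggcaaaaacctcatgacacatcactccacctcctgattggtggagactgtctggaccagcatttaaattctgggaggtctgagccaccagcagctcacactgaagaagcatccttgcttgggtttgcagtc
The element of *Rarb* begins 53 bases before the start, and its letters as searched occur in 2 of 32851 promoter windows (0.00609%). The fixed letters searched are those that *Rarb* holds, and looser forms of the element were not counted. The TATAAA letters of *Spp1* begin 211 bases before the start and occur in 13.6% of the windows. A second RefSeq start of *Spp1*, at chr5:104435942-104436241, holds no TATAAA. A match is a description of letters and says nothing of use in these cells.

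Other carbonic anhydrases were looked up after *Car7* and *Car12* were seen. *Car8*, a member without catalytic activity, was at 44.2 CPM and was detected in 15.7% of type I and in no type II hair cell.

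**Figure D3:**
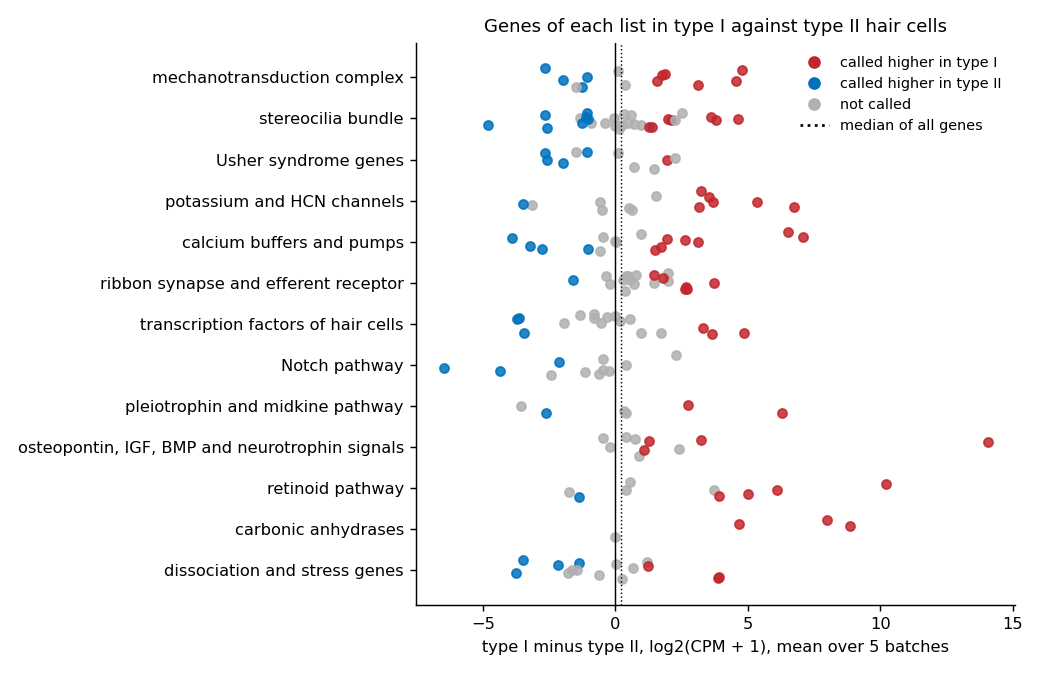
Log2 difference between type I and type II hair cells (mean over 5 batches) for each tested gene of 13 lists, with genes called higher in type I in red, in type II in blue and others in grey. Mechanotransduction and bundle genes lie on both sides of 0, while *Spp1* at 14.05 and *Dhrs3* at 10.23 lie farthest to the right.

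The mechanotransduction complex at the tips of stereocilia is built from TMC channel proteins, their partners and the tip link. Of 13 of its genes tested, 6 were higher in type I and 4 in type II, where 10.1% and 6.75% of all genes were, and 5 and 4 of these were also detected in 50% of the higher type, against 9.39% and 13.8%. The median difference was 0.37. *Cib3*, a calcium-binding partner of the TMC proteins, was at 1930 CPM in type I (1480 to 2581 CPM over 6 batches). It was at 551 CPM in type II hair cells (333 to 757 CPM over 5), with no overlap of batch means. Its paralog *Cib2* was at 285 CPM (136 to 478 CPM) in type I and 909 CPM (836 to 1015 CPM) in type II, the opposite order and again with no overlap of batch means. Type I hair cells were not uniform in this. In those with *Ocm* at 50 CPM or more, described below, *Cib3* averaged 122 CPM and *Cib2* 842 CPM. Exons of *Cib2* overlap *Sh2d7* on the other strand.

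*Tomt*, needed to bring TMC proteins to the bundle, was at 624 against 161 CPM with a log2 difference of 1.76 (SD 0.55). *Tmc1* was at 159 against 66.9 CPM (1.58, SD 1.14) and *Tmc2*, the channel of the early postnatal bundle, at 107 against 5.95 CPM (4.77, SD 2.06). The tip link proteins went the other way. *Pcdh15* was at 72.1 CPM in type I and 322 CPM in type II hair cells (-2.66, SD 0.74), and *Cdh23* at 163 and 357 CPM (-1.07, SD 0.38). *Lhfpl5*, which couples the tip link to the channel, was at 278 against 623 CPM (-1.28, SD 0.26).

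The bundle list showed the same mixture, with 7 of 28 genes higher in each type, against 10.1% and 6.75% of all genes, and a median of 0.27. Higher in type I were the actin crosslinkers *Fscn2*, at 441 against 33.8 CPM, and *Espn*, at 779 against 236 CPM (1.97, SD 0.72). The shaft protein *Ptprq* was at 4082 CPM in type I, from 3399 to 4855 CPM over batches, and at 852 CPM in type II (2.10, SD 0.33). Usher syndrome joins deafness with blindness, and its list holds 10 genes. Of these, 4 were higher in type II (*Cdh23*, *Pcdh15* and *Cib2* among them) and 1 in type I, against 6.75% and 10.1% of all genes. The latter was *Ush1c*, a marker in the supporting cell list, at 246 against 76.9 CPM and at 1112 CPM in supporting cells. *Myo7a*, the motor of the Usher complex, did not pass the call, at 350 against 363 CPM (0.11, SD 0.65).

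Potassium and HCN channels set the membrane time constant of these cells. Of 13 genes tested, 6 were higher in type I and 1 in type II (10.1% and 6.75% of all genes), with a median of 1.52. With detection in 50% of the higher type, 2 and 1 were (9.39% and 13.8% of all genes). *Kcnh7* was at 292 against 64.0 CPM. *Kcnma1*, the large-conductance calcium-activated channel, was at 113 CPM (72.7 to 159 CPM over 6 batches). It was listed at 0 in every type II hair cell, at least 889-fold lower by the limit of 3 reads. It was detected in 45.5% of type I hair cells. *Kcnh6*, from the same family as *Kcnh7*, was at 46.2 against 449 CPM (-3.48, SD 1.20).

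Calcium binding proteins and pumps shape bundle and synaptic calcium. Of 16 genes, 7 were higher in type I and 4 in type II (10.1% and 6.75% of all genes, median 0.50), and 4 and 3 of these were detected in 50% of the higher type. *Calm2*, a calmodulin gene, was at 12672, 17419, 14484, 9129, 7746 and 8852 CPM in batches 1 to 6. In type II hair cells it ran from 2153 to 3342 CPM, a log2 difference of 1.95 (SD 0.25). *Cabp2*, a calmodulin-like regulator of presynaptic calcium channels, was at 1747 against 585 CPM (1.70, SD 0.28). *Atp2b1*, a plasma membrane calcium pump that the rule did not use, was at 543 against 168 CPM. *Pvalb*, the buffer parvalbumin, was at 45.2 against 201 CPM (-2.77, SD 1.09), and *Anxa4*, listed as a type II gene, at 81.8 against 699 CPM (-3.22, SD 0.78).

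Synaptic genes serve glutamate release and the efferent input. Of 19 tested, 6 were higher in type I and 1 in type II, and 3 and 1 of these were also detected in 50% of the higher type (median 0.76), against 10.1% and 6.75%, or 9.39% and 13.8%, of all genes. *Chrna10*, a subunit of the efferent acetylcholine receptor, was at 716 against 293 CPM (1.78, SD 1.06) and its partner *Chrna9* at 250 against 184 CPM (0.40, SD 0.79). *Slc17a8*, the vesicular glutamate transporter of hair cells, was at 156 against 18.6 CPM. *Otof*, the calcium sensor of vesicle release, was at 1840 against 1445 CPM (0.28, SD 0.57). *Snap25* was the gene higher in type II, at 88.2 against 227 CPM (-1.60, SD 0.48).

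Among 17 transcription factors tested, 3 were higher in each type (10.1% and 6.75% of all genes), 1 of the former and all 3 of the latter with detection in 50% of that type, and the median was -0.31. *Gfi1*, a repressor needed for hair cell survival, was at 305 to 415 CPM over the 6 type I batches and at 0 to 91.4 CPM over the 5 type II batches. *Hes6* was at 22.8 against 381 CPM, *Nhlh1* at 9.96 against 125 CPM and *Barhl1* at 16.8 against 119 CPM. *Pou4f3*, the gene of the DTR allele, was at 709 and 1276 CPM, lower in type I in all 5 batches but short of the call (-0.81, SD 0.22). Notch genes had 3 of 11 higher in type II and none in type I, against 6.75% and 10.1% of all genes (13.8% and 9.39% with detection in 50% of the higher type), namely *Dll3*, the ligand *Jag2* at 35.4 against 151 CPM, and *Mfng*, a glycosyltransferase of Notch receptors, at 11.8 against 249 CPM. *Cdkn1a*, a cell cycle inhibitor, was at 18.7 against 366 CPM (a log2 difference of -4.53).

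Of the ligand and receptor lists, the pleiotrophin and midkine pathway had 2 of 6 genes higher in type I and 1 in type II (10.1% and 6.75% of all genes). *Ptprz1*, a receptor phosphatase that binds pleiotrophin, was at 1025, 892, 944, 828, 908 and 856 CPM in batches 1 to 6. In type II hair cells it was at 128, 0, 7.09, 163 and 0.185 CPM in batches 1, 3, 4, 5 and 6. *Sdc4*, a heparan sulfate proteoglycan, was at 1482 against 292 CPM (2.73, SD 0.71) and at 4710 CPM in supporting cells. The ligand *Ptn* went the other way, at 33.5 against 135 CPM (-2.61, SD 1.26), with 818 CPM in supporting cells.

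The list of osteopontin, IGF, BMP and neurotrophin signals had 4 of 10 genes higher in type I and none in type II, *Spp1* included (10.1% and 6.75% of all genes, median 0.99), and 2 of the 4 were detected in 50% of type I hair cells. *Bdnf*, the neurotrophin that supports vestibular afferents, was at 581 against 243 CPM (1.27, SD 0.58) and *Ntrk2*, its receptor, at 80.3 against 21.1 CPM. The osteopontin receptor *Cd44* was at 0.810 CPM in type I and 16.0 CPM in type II hair cells, and *Itgav* at 6.65 and 6.19 CPM. Of 10 TGF beta genes, 2 were higher in type I and none in type II, against 10.1% and 6.75% of all genes. They were the ligand *Tgfb3* at 48.7 against 1.04 CPM and *Tgfbr3* at 26.9 CPM with type II listed at 0. Both were detected in under 25% of type I hair cells, so that none counted at 50% detection.

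Immediate early genes are switched on when tissue is digested. Of 15 dissociation and stress genes, 3 were higher in type I and 4 in type II (10.1% and 6.75% of all genes, median -0.63). With detection in 50% of the higher type, 1 and 4 were (9.39% and 13.8% of all genes). The latter 4 were *Btg2* (129 against 1239 CPM), *Ier2* (45.3 against 579 CPM), *Egr1* (171 against 777 CPM) and *Junb* (278 against 780 CPM), and supporting cells held 2284, 1455, 1514 and 1946 CPM. *Hsp90aa1*, a chaperone, was at 1017 against 399 CPM (1.22, SD 0.12). The part of dissociation in the differences between types was not tested.

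The remaining lists also stand against 10.1% of all genes higher in type I and 6.75% in type II. Of 14 zone and polarity genes, 4 were higher in type I and 2 in type II (median -0.03). Of 6 cell cycle genes, 2 were higher in type II and none in type I. Of 12 genes shared by all hair cells, 4 were higher in type I and 3 in type II (median 0.19). Of 4 genes listed as type I genes outside the rule, 3 were higher in type I (median 6.80, or 8.71 with genes at 0 at their bound), of which only *Spp1* was detected in 50% of type I hair cells, and of 5 listed as type II genes, 3 were higher in type II. The listed type I gene *Lmod3* was listed at 0 in all 191 cells.

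Fewer genes were detected per cell in type I than in type II hair cells. With each cell thinned to 120000 reads, the median number of genes per cell was 2996, 3138, 3450, 3249 and 3366 in type I and 3762, 4133, 4408, 4234 and 4289 in type II hair cells of batches 1, 3, 4, 5 and 6. The type I value was lower in all 5 batches, and the difference averaged -925.2 genes (SD 93.5). The difference was -1043.5 genes without thinning, and median depths were 560152 reads for type I and 681457 for type II.

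Oncomodulin (*Ocm*) is a calcium buffer that marks hair cells of the striola, the central zone of the utricle, and calbindin (*Calb1*) is another calcium buffer. *Ocm* was at 50 CPM or more in 35 type I hair cells (18.3%) and listed at 0 in 152. *Calb1* reached that level in 37 (19.4%), of which 24 also held *Ocm*. None of the 35 type II hair cells, 54 cells with both marker sets or 202 supporting cells held *Ocm* at this level. Only 5 members lay between 25 and 100 CPM, and the *Ocm*-positive cells averaged 1756 CPM. The share of *Ocm*-positive cells was 26.2%, 42.9%, 16.7%, 7.41% and 19.0% in batches 1 to 5 and 5.26% in batch 6. The batches thus differed widely, and the P4 share comes from 1 batch.

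The split by *Ocm*, made after its values were seen, was described over batches 1, 2, 3 and 5, the 4 with at least 3 cells on each side. *Ocm*-positive cells (537241 median reads) and *Ocm*-negative cells (561937) were of like depth, and 2 of the 35 and 38 of the 156 held a type II marker. Of 9673 genes, 297 (3.07%) were higher in *Ocm*-positive and 853 (8.82%) in *Ocm*-negative cells by the same rule, with a median of -0.36 over all genes, and centring on it turned the split to 718 and 526 genes. With detection in 50% of either side required, 2693 genes remained, of which 108 (4.01%) and 137 (5.09%) were counted. Rarely detected genes are not read here either.

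*Cib2* and *Cib3* again went opposite ways. *Cib3* averaged 122 CPM in *Ocm*-positive and 2336 CPM in *Ocm*-negative cells. By batch it was 158, 121, 202 and 0.591 CPM against 2317, 2498, 2629 and 2085 CPM, so the sides did not overlap. *Cib2* was at 866, 792, 710 and 602 CPM in the *Ocm*-positive and 167, 242, 149 and 142 CPM in the *Ocm*-negative cells of these batches, a log2 difference of 2.10 (SD 0.29). Per cell, 32 of 35 *Ocm*-positive cells held under 50 CPM of *Cib3* (91.4%, exact 95% interval 76.9% to 98.2%), and 1 of 156 *Ocm*-negative cells did (0.641%, 0.0162% to 3.52%). The intervals give counting error only and take cells as independent. The split and the gene were chosen after their values were seen, so they describe these cells and test nothing. All 29 members that held *Cib2* but not *Cib3* at 50 CPM were *Ocm*-positive, and 70 of the 72 with *Cib3* alone were *Ocm*-negative. Both genes were present in 86 members, of which 85 were *Ocm*-negative.

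**Figure D4:**
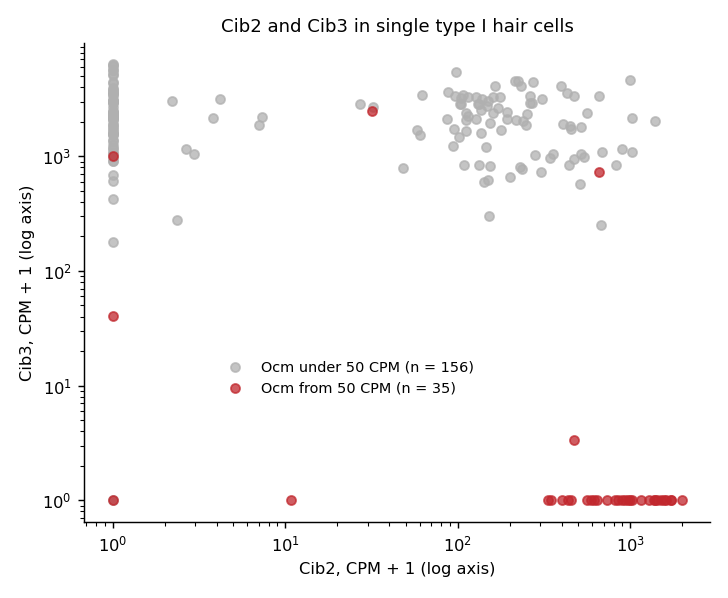
*Cib2* against *Cib3* in each of the 191 type I hair cells (CPM + 1, log axes), with the 35 cells holding *Ocm* at 50 CPM or more in red. Of the red cells, 32 lie under 50 CPM of *Cib3*, where 1 grey cell lies, and 29 of these 32 hold *Cib2*.

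The 33 members with under 50 CPM of *Cib3* shared further genes. *Ocm* was present in 32 of them, *Pvalb* in 27, *Calb1* in 24 and *Isl1*, a LIM homeodomain transcription factor, in 23. *Gsn*, encoding the actin-severing protein gelsolin, was present in 2 and *Dhrs3* in 4.

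Over the 4 batches, the genes with the largest differences towards *Ocm*-positive cells were *Isl1* (320 against 9.03 CPM), *Pvalb* (210 against 8.28 CPM), *Calb1* (739 against 34.3 CPM), *Rora*, a nuclear receptor (278 against 45.0 CPM), *Trim45* (534 against 69.8 CPM) and *Fcrlb* (671 against 67.7 CPM). The log2 difference of *Rora* was 3.96 (SD 3.69), and 2.20 without batch 2. *Atp2a3*, a calcium pump of the endoplasmic reticulum, was at 240 against 3.11 CPM (5.11, SD 2.75). Of 15 calcium genes tested, 3 were higher in *Ocm*-positive and 6 in *Ocm*-negative cells, against 3.07% and 8.82% of all genes. *Pvalb*, lower in type I than in type II hair cells as a whole, was detected in 85.7% of *Ocm*-positive and 8.33% of *Ocm*-negative type I hair cells.

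Towards *Ocm*-negative cells the largest differences were those of *Gsn* (290 against 3170 CPM), *Ly75* (10.3 against 182 CPM), *Cib3*, *Sema6d* (79.4 against 612 CPM), *Tgfa*, a growth factor (9.38 against 140 CPM), and *Dhrs3* (192 against 1322 CPM). *Dhrs3* was at 275, 91.7, 353 and 0 CPM in *Ocm*-positive cells and 875, 1366, 1587 and 1707 CPM in *Ocm*-negative cells of batches 1, 2, 3 and 5, a log2 difference of -4.61 that became -2.57 without batch 5. *Tmc1* was at 43.2 against 185 CPM (-2.36, SD 1.75) and *S100a13* at 16.5 against 225 CPM (-3.97, SD 1.66). *Spp1* remained high on both sides, at 14447 against 31345 CPM (-1.25, SD 0.47). Little different were *Bdnf* (0.27, SD 0.65), *Fscn2* (0.20, SD 0.40), *Ptprz1* (-0.31, SD 0.46) and *Kcnma1* (-0.10, SD 0.18).

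**Figure D5:**
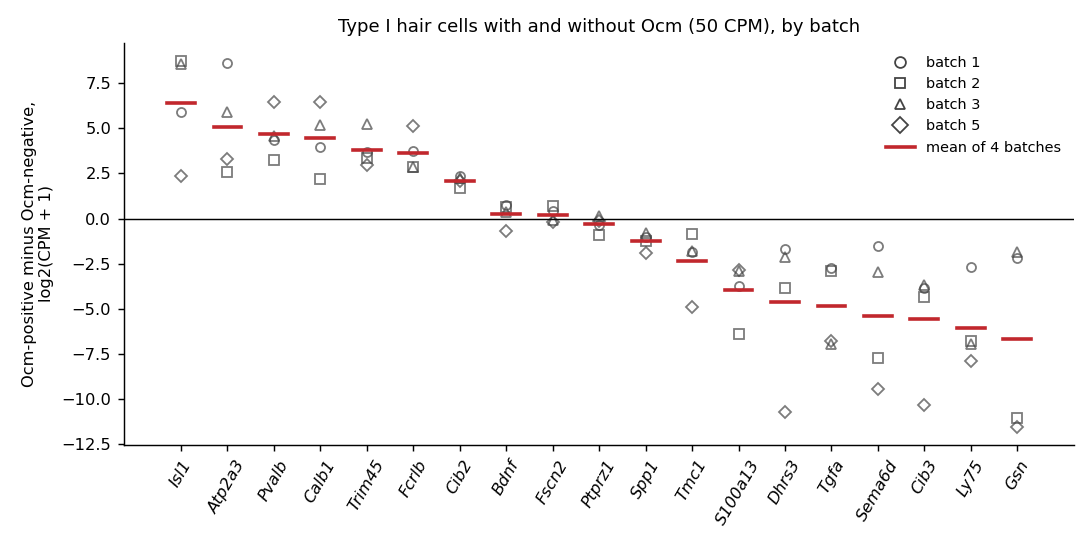
Log2 difference between *Ocm*-positive and *Ocm*-negative type I hair cells for 19 genes in each of 4 batches (symbols), with the mean as a red bar. *Cib2* lies between 1.71 and 2.37 in every batch, *Cib3*, *Gsn*, *Ly75* and *Dhrs3* lie below 0 in every batch, and *Bdnf*, *Fscn2* and *Ptprz1* lie around 0.

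By rule, genes that were present in part of the type I hair cells of each batch were also picked out. The 6 most abundant genes present at 50 CPM in 20% to 80% of members, and in 15% to 85% of members of every batch with at least 10, were *Kifap3*, *Rsrp1*, *Uqcrc1*, *Ccer2*, *Wdr1* and *Atp6v1a*, each present in 70.7% to 78.0% of the cells. *Ccer2* ranged up to 5514 CPM with a median of 206 CPM in type I hair cells and averaged 464 CPM against 4051 CPM in type II (-3.26, SD 0.62). Exons of *Ccer2* overlap *Nfkbib* on the other strand.

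Between P6 and P4 type I hair cells a gene was counted when the P4 batch lay outside the range of the 5 P6 batches by a log2 difference of at least 1 from their mean. Of 10071 genes, 460 (4.57%) were higher at P6 and 1114 (11.1%) at P4, with a median of -0.25 over all genes, and centring on it turned the split to 745 and 640 genes. With detection in 50% of either age required, 2583 genes remained, of which 37 (1.43%) were higher at P6 and 129 (4.99%) at P4. On simulated cells with no difference the rule marked about as many genes or more, so nothing is read from these counts, and the genes below show how 1 batch differs from 5.

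*Spp1*, *Dhrs3*, *Ptprz1*, *Cib3* and *Cib2* were not among the genes counted, with *Ptprz1* at 828 to 1025 CPM in the P6 batches and 856 CPM at P4. The genes named towards P6 were *Ighm* (359 to 612 CPM over the P6 batches, 121 CPM at P4), *AI593442* (1921 to 6029 CPM and 962 CPM), *Mycbpap*, *Plce1*, *Phactr2* and *Cdip1*, with log2 differences of 1.44 to 1.88. Towards P4 they were *Cwc25*, *Slc31a1*, *Dnaaf5*, *Zbed5*, *Coro2b* and *Abhd8*, at 27.9 to 260 CPM in the P4 batch with differences of -2.61 to -1.99 and SDs over P6 batches of 0.78 to 2.96. Without batch 2 the difference of *Slc31a1* was -1.16 instead of -2.43, still past the limit of 1 for a call. That of *Dnaaf5* was -0.96 instead of -2.24, under this limit. *Zbed5* turned to 1.16 when only cells with all 3 type I markers and no type II marker were used. Among listed genes, *Chrna9* was at 155 to 372 CPM in the P6 batches and 102 CPM at P4 (1.41, SD over P6 batches 0.50). *Rfx3*, a ciliary transcription factor, was at 108 to 143 CPM in the P6 batches and 57.4 CPM at P4 (1.04, SD 0.16). *Calb1* was at 64.4 to 356 CPM in the P6 batches and 28.6 CPM at P4, while the share of cells with 50 CPM or more was 13.2% at P4, above the 11.1% of batch 4 and the 9.52% of batch 5. Batch 6 differs from batches 1 to 5 in age and in sequencing at once, and the 2 cannot be told apart.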

How the data were processed

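The authors sorted single cells into plates, made Smart-seq2 libraries, aligned reads to GRCm38 (mm10) with STAR and quantified genes with RSEM. The values deposited by the authors are RSEM expected counts of 52627 entries, 92 of them spike-ins, without normalization, used unrounded. They were divided by each cell's total and given as CPM. Spike-ins stayed in these totals and among the genes counted. No cell was removed for its share of spike-in reads, and the part of spike-ins in the differences was not tested. Members and lists were chosen with earlier results of these data known, and the *Ocm* and *Spp1* splits, the *Cib2* and *Cib3* cell counts and the retinoid and carbonic anhydrase lists after seeing values here.

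Differences are log2 of mean CPM + 1 within batches holding at least 3 cells of each group (age: at least 5), averaged, with the SD over batches. No test was run, since cells are not replicates and no animal is named. Named genes are the 8 (age, and *Ocm*: 6) largest called differences per direction detected in at least 50% of the higher group, without predicted or mitochondrial genes, plus list members. Doublets were gated by size at sorting and not called. The rule was tested on simulated data. Python 3.11.15, numpy 2.4.6, pandas 2.3.3, scipy 1.17.1 and, for TMM factors used in an alternative, edgeR 4.0.16 in R 4.3.3 were used. Genome sequences are from RefSeq tables (GRCm38.p6). Results for a few genes are not reported here.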

Additional observations from a re-analysis of the deposited data

Results flagged for a closer look

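In 17 of the 91 genes and comparisons whose batch values were examined, 1 batch stood apart from the others beyond Dixon's 95% limit, where chance gives about 1 in 20. The log2 differences between type I and type II hair cells were low in batch 6 for *Spp1* (11.09, others 14.21 to 15.14), *Ighm* (6.93, others 8.49 to 9.06) and *Rarb* (0.75, others 7.18 to 7.80). They were nearer to 0 in batch 6 for *Gal* (-3.67, others -10.98 to -9.39) and *Cryab* (-3.47, others -8.07 to -6.82). Batch 1 stood apart for *Dhrs3* (9.49), batch 3 for *Tmc1* (3.57) and *Hes6* (-1.76), batch 4 for *Car7* (8.26) and *Vwa3a* (8.63), and batch 5, with 3 type II hair cells, for *Fscn2* (9.16), *Kcnh7* (8.17) and *Calm2* (1.52). *Cib3* differed most between *Ocm*-positive and *Ocm*-negative cells in batch 5 (-10.36, others -4.35 to -3.70). Among P6 batches, batch 2 stood apart on the log2(CPM + 1) scale for *Slc31a1* (0), *Dnaaf5* (0.40) and *Rdx* (7.04). In cells from beneath the epithelium, 2 of the 375 kept cells met the rule for type I hair cells.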

How the results depend on the processing

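The named log2 differences were recomputed over all settings except detection filters and the call limit. Of the values for type I against type II, 234 of 272 kept their direction and moved by less than the SD over batches. So did 177 of 180 for age and 128 of 132 for the *Ocm* split. These tallies include leaving out each batch, which cannot move a mean by as much as the SD over batches. Those values could not fail on size, so the tallies overstate stability. Most others changed with the pseudocount or with cells holding both marker sets counted as type II, and 1 turned, *Zbed5* between ages (1.16). The 50% detection filter, centring, the minimum of 5 cells, the use of both-marker cells and all settings of the *Ocm* split were chosen after seeing the data. The member count was 130 to 193 under the other rules. Genes higher in type I numbered 714 and 372 with detection filters of 25% and 50%, and 620 with both-marker cells as type II. Genes higher in type II numbered 307 from a log2 difference of 2, 2110 with cells pooled (1533 in type I), 1478 with at least 5 cells per type and 1209 when centred. Higher at P6 were 815 under the strict rule, 261 with 10 CPM added, 176 and 38 at 25% and 50% detection, 136 from a log2 difference of 2, 938 pooled and 745 centred. Higher at P4 were 592 with 10 CPM added, 2177 unfiltered, 442 and 129 at 25% and 50%, 337 from a log2 difference of 2 and 640 centred. *Ocm*-positive counts were 108 at 50% detection, 115 from a log2 difference of 2, 985 pooled, 718 when centred and 159 at an *Ocm* threshold of 25 CPM. *Ocm*-negative counts were 434 and 141 at 25% and 50%, 1334 pooled and 526 when centred. Leaving out each batch gave 1317 to 1399 genes for type I, 874 to 1041 for type II, 525 to 662 for P6, 1085 to 1394 for P4, 488 to 601 for *Ocm*-positive and 1194 to 1474 for *Ocm*-negative, where fewer batches must share a sign. The *Ocm* counts moved by over 1.5 times without batch 1 (520 and 1474), without batch 2 (488 and 1461) and without batch 3 (594 and 1335), and the *Ocm*-positive count also without batch 5 (601). The difference in genes per cell was -1043.5 unthinned, -758.4 from 5 reads, -728.2 with both-marker cells as type II and -965.1 to -907.9 leaving out each batch. The share of *Ocm*-positive cells under the *Cib3* threshold was 83.8% at 25 CPM, 96.9% at 100 CPM and 86.1% after thinning. Where no construction explains a move, the cause was not tested. No paired analysis was possible because the replicate numbers in the labels only count blocks of cells, while differences between types and by *Ocm* were taken within sequencing batch throughout. Few type II hair cells (3 to 12 per batch) limit all differences of low genes.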
